A study of Mus musculus with 21 samples.

Results

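The genes described here run the entry of new proteins into the endoplasmic reticulum (ER), their processing and folding there, the removal of misfolded ones, and the unfolded protein response that adjusts these steps. The set was 52 genes chosen by function, and all 52 were found among the 14493 genes measured. They were divided by role into 7 lists: translocon and ribosome binding (10 genes), signal peptidase (6), N-glycosylation (7), the Hsp70 and Hsp90 chaperone system (9), disulphide, lectin and prolyl isomerase folding factors (9), ER-associated degradation (7), and sensors and transcription factors (4).

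Cells came from draining lymph nodes of 6 mice given 100 µg of the hapten-carrier antigen NP-KLH in Sigma adjuvant under the skin at the tail base, with 1 oral dose of 5 mg tamoxifen 6 or more days later to switch on Cre-ERT2-driven labelling. Strain, age and the gene driving Cre-ERT2 are not given in the sources used here. On each of days 10, 16 and 22 of the response 2 mice were taken, and every mouse received the antigen and tamoxifen, so there is no unimmunised or unlabelled group. IgD-negative eYFP+ B lineage cells were sorted into plasma cells (PC) and non-PC, hashtagged by mouse, pooled within each fraction and captured in separate wells for 5′ single-cell RNA sequencing. The authors' state names were used: DZ and LZ (dark and light zone of the germinal centre), LZtoDZ, preMem, prePC and PC; how the states and cell cycle phases were assigned is not stated.

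As background, secretory proteins are threaded into the ER through the Sec61 channel, lose their signal peptide, receive N-linked glycans, and are folded by BiP (Hspa5), Grp94 (Hsp90b1), lectin chaperones and disulphide isomerases. Misfolded chains are pulled back out and degraded. Ire1 (Ern1), Atf6 and PERK sense unfolded protein: Ire1 splices the Xbp1 message, Atf6 is cut to release a transcription factor, and PERK favours translation of Atf4, which can induce CHOP (Ddit3). Plasma cells, which secrete antibody in bulk, are the textbook example of B lineage cells with an expanded ER under control of Xbp1.

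The replicate was the mouse: UMIs (unique molecular identifiers, the counts of captured transcripts) were summed per mouse and population, and levels are CPM, a gene's UMIs scaled to 1000000 UMIs of the sum without immunoglobulin genes. Of 6619 cells, GC cells (DZ, LZ and LZtoDZ together) numbered 5808 from 6 mice, prePC 47, cycling PC (called S or G2M) 120 and G1 PC 122. Sums of at least 10 GC cells, 5 PC of a phase and 3 prePC were kept, which left 5 mice with 119 cycling PC, 5 with 120 G1 PC and 5 with 47 prePC. Values of 5 mice are given in the order of day and mouse. Cycling PC and prePC lack mouse 1 of day 16, and G1 PC lack mouse 2 of day 22. The sums held 5466848 to 13411366 UMIs in GC cells, 32769 to 603281 in prePC, 122100 to 1220317 in cycling PC and 104494 to 809525 in G1 PC. The prePC sum of mouse 1 of day 10 rests on 3 cells, where 1 UMI is worth about 30.5 CPM. Cells of all mice shared the capture wells, so the spread between mice does not hold that between captures.

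The PC and GC names matched their markers, and prePC were mixed. All 8 plasma cell markers were higher in G1 PC than in GC cells and all 8 germinal centre markers lower. Summed plasma cell markers were 2301 to 2434 CPM in GC, 2716 to 6076 in prePC, 14712 to 41780 in cycling PC and 38600 to 64318 in G1 PC. In DZ cells alone they were 2834 to 3089, inside the prePC range. Summed memory precursor markers were 14.2 to 46.8 CPM in GC, 329.8 to 915 in prePC, 847 to 1039 in preMem and 47.2 to 153 in G1 PC. By these, prePC overlapped preMem. Of 8 T cell markers 5 (Cd3d, Cd3e, Cd4, Cd8a and Trbc2) had no UMI in G1 PC, and the list summed to 0 to 40.4 CPM there, 0 to 13.5 in cycling PC, 17.8 to 428 in prePC and 62.6 to 109.9 in GC. Myeloid markers (7 measured of 8, Csf1r at 0 in both PC populations) summed to 0 to 144 CPM in G1 PC, 15.0 to 43.8 in cycling PC, 17.8 to 336 in prePC and 8.05 to 71.4 in GC. Genes induced by cell handling (Fos, Jun and others) summed to 897 to 1556 CPM in G1 PC, 532 to 973 in cycling PC, 214 to 885 in prePC and 340.2 to 459 in GC, and their part in the results was not tested. The mitochondrial share of UMIs was 0.84% to 1.06% in G1 PC and 1.74% to 1.78% in GC. Immunoglobulin transcripts took 27.0% to 35.5% of UMIs in G1 PC, 10.5% to 26.0% in cycling PC, 1.80% to 5.21% in prePC and 1.32% to 1.59% in GC. Between the wells 6 cell barcodes were shared.

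All 52 genes were higher in G1 PC than in GC cells, with log2 differences from 1.02 (Syvn1) to 11.66 (Fkbp11) and a median of 3.56, against a median of -0.10 over all 4997 genes tested. In the same comparison 29.2% of all genes tested were called higher and 30.3% lower (edgeR's quasi-likelihood F test with the mouse as a block, Benjamini-Hochberg adjusted p under 0.05). For 42 of the 52 every GC sum lay at or above the 25.02 CPM that the filter on low counts asks for. The other 10 had a GC sum under it. For those that entered through the PC or prePC populations the filter itself favoured a difference, so their p against GC is no support. Fkbp11 and Ern1, under 1 CPM in every GC sum, are the extreme cases. Derl3, Atf6, Ddit3, Sec63, Hyou1 and Dnajb9 also had every GC sum under the filter. In cycling PC 50 of the 52 were higher than in GC cells (median 2.88, against -0.06 over all genes), where 28.2% of all genes tested were called higher and 29.7% lower. Syvn1 (-0.27 ± 0.15) and Ddit3 (-0.58 ± 0.48) were the exceptions, and no member was called lower, at unadjusted p or with DESeq2 either. These differences are TMM-scaled and the CPM printed here are not. PC minus GC differences therefore lie above those that the CPM give. With plain library totals in place of TMM scaling (an alternative added after the data were seen), the median of all genes moved to -0.55 in G1 PC and -0.26 in cycling PC, and calls over all genes from 1460 higher and 1513 lower to 958 and 2540, and from 1407 and 1483 to 1070 and 1982. Under it all 52 members were still higher in G1 PC, and 49 were higher and 1 lower in cycling PC.

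Summed over the 52 genes, the level was 6843 to 7140.2 CPM in GC cells, 8575 to 16492 in prePC, 36446 to 72282 in cycling PC and 66363 to 81809 in G1 PC. The 4 ranges overlapped only between cycling and G1 PC. Within mice the summed level of the 52 genes was higher in G1 PC than in GC cells by a mean log2 difference of 3.46 (range 3.22 to 3.58 over 5 mice). The lists ranked the same way at both ends in every mouse. The chaperone system came first in 5 of 5 mice, 30.6-fold higher (4.94, 4.37 to 5.16), and still came first in 5 of 5 when Hsp90b1 was left out (3.98, 3.43 to 4.19). Signal peptidase (3.28), folding factors (3.16), glycosylation (2.88, 2.82 to 2.93) and translocon (2.87, 2.81 to 2.96) followed. Degradation was 6th in every mouse (2.29, 1.81 to 2.58), and the sensors were last (1.39, 1.04 to 1.86). With each gene given equal weight, by the mean of log2(CPM + 1), chaperones again came first in 5 of 5 mice, and degradation and sensors took the last 2 places. CPM are shares of a cell's RNA, so more of these transcripts and less of the others cannot be told apart.

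**Figure D1:**
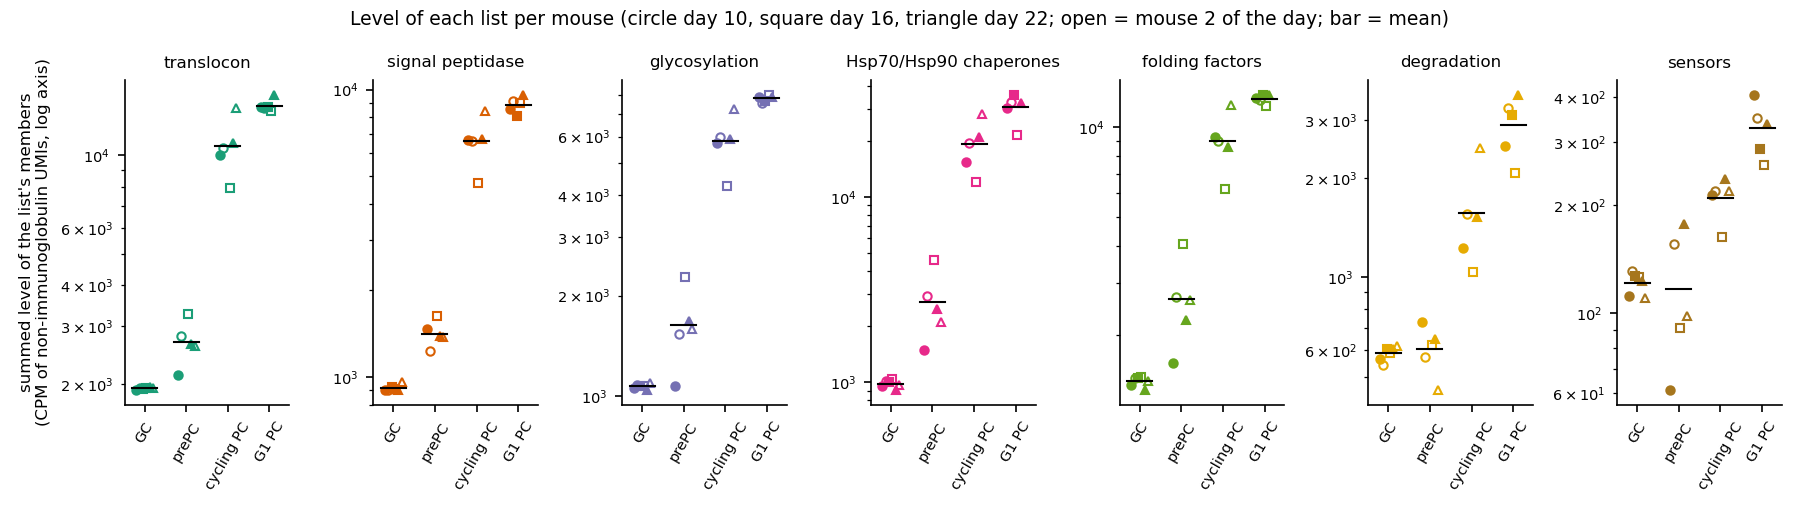
Summed level of each of the 7 lists (CPM of non-immunoglobulin UMIs, log axis, each panel with its own range) in GC cells, prePC, cycling PC and G1 PC; each point is 1 mouse and the bar is the mean. For chaperones GC sums lie between 905 and 1044 CPM and G1 PC sums between 21646 and 35648, while prePC sums for degradation (455 to 732) lie on both sides of those of GC (542 to 620).

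Translocon and ribosome binding. All 10 genes were higher in G1 PC than in GC, with differences of 2.13 to 4.75 (median 3.06). Rrbp1, a ribosome-binding protein of rough ER, rose most. It was at 44.0 to 56.5 (median 52.1) CPM in GC cells, 153, 166, 136, 103 and 98.1 in prePC, 557, 761, 625, 855 and 795 in cycling PC and 1173, 1024, 852, 1011 and 1199 in G1 PC. GC, prePC and cycling PC did not overlap, and the 2 PC populations met (G1 PC minus GC 4.75 ± 0.14, adjusted p = 2.2e-28). Ssr4, a subunit of the translocon-associated complex that helps nascent chains through the channel, was at 201 to 219 (median 211) CPM in GC, 244, 376, 363, 428 and 472 in prePC, 1998, 1373, 966, 1388 and 2835 in cycling PC and 2410.2, 3109, 2948, 2912 and 3995 in G1 PC. It showed the same order, with overlap between the 2 PC populations alone (G1 PC minus GC 4.35 ± 0.21, adjusted p = 3.2e-10). Sec62, which serves the import of finished chains, moved least: 125 to 138 (median 127) CPM in GC and 398, 418, 431, 429 and 431 in G1 PC (2.13 ± 0.13, adjusted p = 5.8e-18). Its prePC values of 275, 131, 102, 162 and 116 overlapped GC, and its cycling PC values of 328, 378, 303, 359 and 382 lay between.

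Signal peptidase. All 6 genes were higher in G1 PC (1.15 to 5.08, median 3.81), but its alternative catalytic subunits parted. Sec11c was at 222 to 246 (median 226) CPM in GC, 641, 356, 511, 487 and 419 in prePC, 2424, 2261, 1736, 2149 and 3010.2 in cycling PC and 3235, 3204, 3426, 3406 and 3652 in G1 PC. The 4 populations were fully separated in that order (G1 PC minus GC 4.34 ± 0.11, adjusted p = 4.0e-29). Sec11a began at 113 to 123 (median 117) CPM in GC and stood at 183, 161, 170.4, 162 and 98.1 in prePC, 311, 231, 218, 216 and 181 in cycling PC and 145, 217, 191, 210.3 and 202 in G1 PC (1.15 ± 0.15, adjusted p = 1.6e-08). The prePC values overlapped both GC and PC, and the 2 PC populations overlapped each other. H13, the signal peptide peptidase that cuts up the released peptides, was at 62.9 to 73.4 (median 70.0) CPM in GC, 30.5, 136, 125, 177 and 187 in prePC, 958, 1049, 678, 1129.6 and 1396 in cycling PC and 1650.2, 1760.3, 1493, 1666 and 1940.5 in G1 PC. GC and prePC overlapped through the 3-cell prePC sum, and the PC populations stood apart from both and from each other (5.08 ± 0.14, adjusted p = 2.0e-26).

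Glycosylation. The 7 genes, all of the oligosaccharyltransferase that transfers glycans to asparagine, moved within a narrow band of 2.10 to 4.16 (median 3.49). Ddost, a non-catalytic subunit, was at 108 to 122 (median 112) CPM in GC, 61.0, 209, 375, 339 and 205 in prePC, 1106, 1011, 713, 1079 and 1383 in cycling PC and 1296, 1502, 1388, 1626 and 1631 in G1 PC (4.16 ± 0.16, adjusted p = 4.1e-17). Its 3-cell prePC sum fell below the GC range and the other 4 above. Krtcap2, an accessory subunit, was at 184 to 212 (median 202) CPM in GC, 305, 277, 477, 398 and 223 in prePC, 1294, 1523, 1048, 1247 and 1965 in cycling PC and 1860.1, 2054, 1924, 2249 and 2082 in G1 PC (3.78 ± 0.15, adjusted p = 1.2e-15). Every prePC sum lay above GC and every PC sum above prePC. Dad1, a small core subunit, moved least, from 268 to 284 (median 275) CPM in GC through 366, 302, 534, 442 and 419 in prePC and 647, 743, 550.4, 801 and 669.6 in cycling PC to 1013, 871, 833, 728 and 943 in G1 PC (2.10 ± 0.12, adjusted p = 4.2e-18). It separated GC, prePC and PC in the same way.

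Chaperones. All 9 genes were higher in G1 PC by at least 3.39 (median 4.61), the highest median of the 7 lists. Hsp90b1 (Grp94, the Hsp90 of the ER, chr10:86690209-86705509, minus strand, GRCm38) was at 185 to 245 (median 210.2) CPM in GC, 458, 1067, 1749, 723 and 749 in prePC, 9083, 11445, 6634, 11879 and 15752 in cycling PC and 17378, 19161, 21829, 13007 and 19169 in G1 PC. The lowest PC sum was above every prePC sum and the lowest prePC sum above every GC sum (G1 PC minus GC 6.87 ± 0.32, adjusted p = 3.8e-10). Other annotated genes share exon sequence with it on the same strand, and reads there cannot be assigned to one or the other. Hspa5 (BiP, the ER's Hsp70) was at 264 to 301 (median 285) CPM in GC, 214, 598, 988, 457 and 490.3 in prePC, 1343, 1859, 1246, 2242 and 3467 in cycling PC and 3322, 3745, 3838, 2168 and 3113 in G1 PC (3.98 ± 0.28, adjusted p = 3.8e-08). Creld2, a thioredoxin-like partner of client folding induced by ER stress, was at 37.8 to 43.2 (median 40.7) CPM in GC, 0, 111, 249.9, 103 and 89.1 in prePC, 769.9, 1112, 608, 1330.4 and 1439 in cycling PC and 1817, 1875, 1933, 719.9 and 1354 in G1 PC (5.65 ± 0.31, adjusted p = 2.3e-09). In both, PC stood above all other sums, and the 3-cell prePC sum fell at or below GC. Dnajb11 (ERdj3), a BiP co-chaperone, moved least of the list: 87.3 to 106 (median 97.9) CPM in GC, 183, 156, 284, 162 and 134 in prePC, 516, 674, 470.3, 722 and 851 in cycling PC and 746, 841, 823, 696 and 674 in G1 PC (3.39 ± 0.14, adjusted p = 9.4e-23). Mouse 2 of day 16 had the lowest G1 PC sum of the list, 21646 CPM against 30109.6 to 35648 in the others.

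Promoters of several of these genes carry a known element. The ER stress element, bound with NF-Y by Atf6 and Xbp1 in textbook accounts, reads CCAAT and CCACG with 9 bases between. In RefSeq windows of GRCm38.p6 from 250 bases before to 50 after the start, 43 of the 52 genes had an entry. Searched on both strands, the element was in 9 of these 43 genes (9 of their 49 windows), against 0.119% of all 32851 windows. The 9 were Hspa5, Hsp90b1 (2 copies), Dnajc3, Creld2, Pdia6, Calr, Canx, Derl3 and Syvn1, whose G1 PC minus GC differences ran from 1.02 (Syvn1) to 6.87 (Hsp90b1). The second form, ATTGG and CCACG 1 base apart, was in Herpud1, Dnajb11 and Krtcap2, against 0.0365% of all windows; in Dnajb11 and Krtcap2 it lay after the start. No motif overlapped another. The amino acid response element TGATGNAA was in Herpud1, against 3.97% of all windows. The unfolded protein response core TGACGTGG was in none of the 43, against 0.676%. The set was chosen for its part in this response, so these shares are descriptions and not a test. A match is a string of letters and shows no binding. Shown are the main Hsp70 and Hsp90 of the ER, the largest and smallest mover of the degradation list, and Herpud1, each on the gene's strand 5′ to 3′ with the element in capitals (read on the opposite strand as CGTGG and ATTGG).
Hspa5, chr2:34772013-34772055, plus strand: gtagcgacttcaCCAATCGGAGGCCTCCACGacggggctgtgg
Hsp90b1 distal copy, chr10:86705626-86705668, minus strand: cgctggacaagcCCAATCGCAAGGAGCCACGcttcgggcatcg
Hsp90b1 proximal copy, opposite strand, chr10:86705521-86705563, minus strand: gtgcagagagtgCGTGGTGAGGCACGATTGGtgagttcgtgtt
Derl3, opposite strand, chr10:75893230-75893272, plus strand: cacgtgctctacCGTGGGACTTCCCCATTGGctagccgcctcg
Syvn1, chr19:6046520-6046562, plus strand: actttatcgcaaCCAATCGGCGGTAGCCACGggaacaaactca
Herpud1, second form, chr8:94386365-94386399, plus strand: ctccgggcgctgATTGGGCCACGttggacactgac

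Folding factors. All 9 were higher in G1 PC (1.48 to 11.66, median 3.62), and the list held the widest spread. Fkbp11, a prolyl isomerase of secretory cells (chr15:98724366-98728198, minus strand), was nearly undetected in GC cells. It was low in prePC and in preMem (5.57 to 26.0 CPM, 26 UMIs in all). In GC cells it had 16 UMIs in all, 0.0782 to 0.594 (median 0.325) CPM, and in prePC 14 UMIs, at 0, 18.2, 11.4, 14.7 and 8.91 CPM. It was at 360.4, 419.6, 180.1, 411 and 669.6 CPM in cycling PC and 688, 695, 660.3, 453 and 768 in G1 PC, above every other sum (11.66 ± 0.21, adjusted p = 1.8e-35). Fkbp11 passed the filter on low counts through PC alone, so its p is no support. Pdia4 (ERp72), a disulphide isomerase, was at 29.3 to 35.3 (median 33.1) CPM in GC, 153, 186, 216, 177 and 178 in prePC, 1425, 1197, 650.4, 1118 and 2034 in cycling PC and 2425, 2319, 2440.3, 1885 and 1947 in G1 PC (6.54 ± 0.18, adjusted p = 2.4e-18). GC, prePC and PC were fully separated. The 2 lectin chaperones, which hold glycoproteins until they fold, differed. Calr, the soluble one, was at 149 to 190.1 (median 175) CPM in GC, 244, 404, 522, 251 and 455 in prePC, 958, 1321, 898, 1311 and 1289 in cycling PC and 1361, 1581, 1435, 1416 and 1779 in G1 PC, with all 4 populations apart (3.58 ± 0.12, adjusted p = 9.5e-25). Canx, the membrane-bound one, went from 132 to 154 (median 145) CPM in GC to 122, 242, 341, 88.5 and 232 in prePC, 442, 328, 315, 351 and 219 in cycling PC and 355, 268, 364, 388 and 216 in G1 PC (1.48 ± 0.16, adjusted p = 9.5e-11). Its prePC sums overlapped all other populations. Pdia3 (ERp57), the isomerase that works with both lectins, was at 328 to 352 (median 345) CPM in GC, 336, 557, 897, 487 and 597 in prePC, 1204, 1328, 1071, 1384 and 1471 in cycling PC and 1679, 1549, 2038, 1537 and 1745 in G1 PC. Apart from 1 prePC sum inside the GC range, its populations did not overlap (2.74 ± 0.12, adjusted p = 1.2e-20).

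Degradation. All 7 genes were higher in G1 PC, but by less (1.02 to 5.91, median 2.77), and 6 of 7 in cycling PC (median 1.82). Derl3, a derlin of the channel that returns chains to the cytosol, was at 13.4 to 19.4 (median 16.9) CPM in GC, 61.0, 38.1, 79.5, 29.5 and 44.6 in prePC, 238, 299.9, 178, 322 and 745 in cycling PC and 565, 771, 899.6, 307 and 862 in G1 PC (5.91 ± 0.26, adjusted p = 4.7e-12). The GC, prePC and PC ranges were separate. Edem1, which marks glycoproteins for removal, was at 27.9 to 31.5 (median 29.8) CPM in GC, 61.0, 51.4, 45.4, 29.5 and 17.8 in prePC, 180.2, 271, 163, 270.3 and 219 in cycling PC and 478, 499, 345, 332 and 438 in G1 PC (4.22 ± 0.15, adjusted p = 2.3e-25). Its prePC values overlapped GC, and cycling and G1 PC were apart. Syvn1 (Hrd1), the ubiquitin ligase at the centre of this machinery (chr19:6046576-6053712, plus strand), took another course. It was at 117 to 126 (median 123) CPM in GC, 91.5, 64.6, 90.9, 59.0 and 44.6 in prePC, 81.9, 91.8, 67.5, 102 and 81.4 in cycling PC and 188, 178, 278, 129 and 175 in G1 PC. Every prePC and cycling PC sum was below every GC sum, and every G1 PC sum above (1.02 ± 0.15, adjusted p = 2.3e-07). GC cells of the PC well alone, however, had Syvn1 at 22.3 to 89.8 CPM (median 65.7, 5 mice). That range overlapped prePC and cycling PC and lay below G1 PC, and the part of the well was not tested. Herpud1, which assembles the Syvn1 complex (chr8:94386438-94395377, plus strand), was at 214 to 275 (median 256) CPM in GC, 336, 215, 182, 369 and 178 in prePC, 311, 255, 215, 253 and 569 in cycling PC and 724, 865, 919, 655 and 1179 in G1 PC. Its GC, prePC and cycling PC ranges overlapped, and G1 PC stood above all others (G1 PC minus GC 2.28 ± 0.16, adjusted p = 4.0e-12; cycling PC minus GC 0.44 ± 0.17, adjusted p = 0.03).

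Sensors and transcription factors. All 4 were higher in G1 PC (1.34 to 6.28, median 2.30). Ern1 (Ire1, chr11:106394650-106487852, minus strand) was at 0.149 to 0.948 (median 0.764) CPM in GC, 0, 6.63, 22.7, 14.7 and 0 in prePC, 8.19, 20.5, 12.5, 27.0 and 6.26 in cycling PC and 36.2, 49.4, 28.7, 48.5 and 33.7 in G1 PC (6.28 ± 0.47, adjusted p = 6.1e-15). Both PC populations lay above GC and apart from each other, and 2 prePC sums had no UMI. Ern1 too passed the filter on low counts through PC alone, so its p is no support. Atf6 was at 12.7 to 18.3 (median 13.8) CPM in GC, 0, 29.8, 34.1, 44.2 and 17.8 in prePC, 57.3, 50.8, 40.0, 75.3 and 31.3 in cycling PC and 138, 77.8, 86.1, 32.4 and 67.4 in G1 PC (2.83 ± 0.25, adjusted p = 6.3e-13). Atf4 was at 82.2 to 101 (median 99.5) CPM in GC, 30.5, 109, 34.1, 88.5 and 71.3 in prePC, 147, 138, 110.1, 127 and 169 in cycling PC and 203, 189, 124, 178 and 209 in G1 PC (1.34 ± 0.17, adjusted p = 5.3e-09). PC exceeded GC in each mouse for both, and cycling and G1 PC overlapped. Ddit3 (CHOP) rested on few UMIs: 9.46 to 13.8 (median 10.97) CPM in GC, 0, 9.01, 0, 5.79 and 12.5 in cycling PC (16 UMIs) and 29.0, 32.1, 47.8, 0 and 27.0 in G1 PC (39 UMIs), with overlap between the 3 (1.78 ± 0.41, adjusted p = 2.5e-04). Protein activity of the sensors, Xbp1 splicing among it, was not analysed here.

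**Figure D2:**
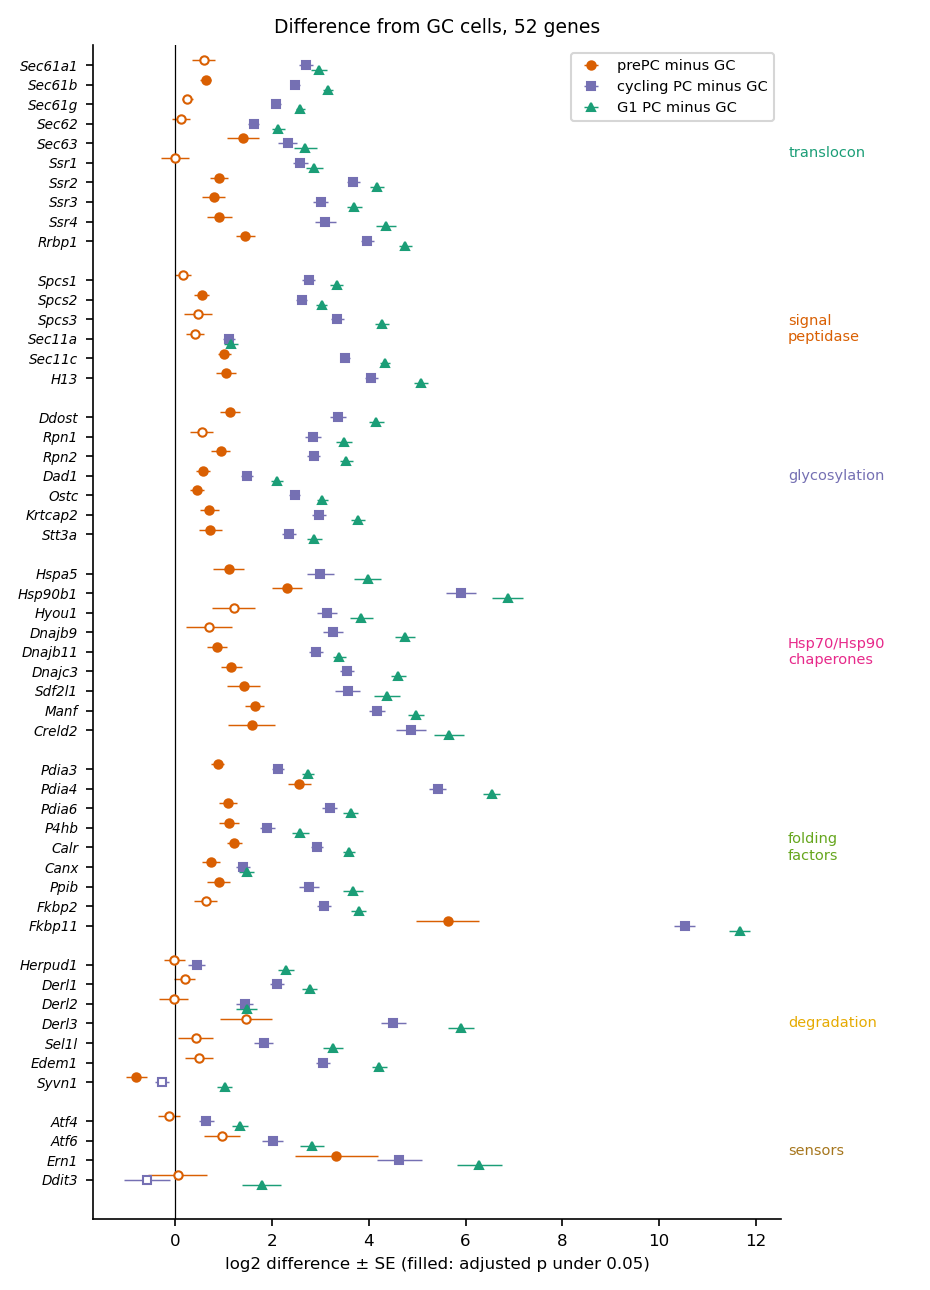
Log2 difference from GC cells (x axis, with SE) for each of the 52 genes in prePC, cycling PC and G1 PC; filled symbols have an adjusted p under 0.05. With TMM scaling G1 PC lie farthest right for all 52 genes, from 1.02 (Syvn1) to 11.66 (Fkbp11). In prePC no degradation gene is filled but Syvn1 (-0.81).

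Genes outside the set that work in the same steps were taken from lists chosen with earlier results of these data known. In G1 PC against GC cells, where 29.2% of all genes tested were called higher, 12 of 15 tested genes of signal recognition and other translocation factors were higher and none lower (Srp19 2.55, Emc7 2.69). Of other glycosylation factors 13 of 15 were higher and none lower (Tmem258 2.33, Magt1 2.62). Other folding and redox factors gave 12 of 15 (Txndc11 3.91, Txndc5 3.12) and other degradation factors 12 of 12 (Edem2 4.63, Os9 3.39). Of vesicle transport between ER and Golgi 27 of 28 were higher (Surf4, a cargo receptor, 3.79; Tmed10 3.55; the retrieval receptor Kdelr1 3.15), and Trappc1 was lower (-0.71). All 6 tested regulators other than the sensors were higher. Xbp1, the transcription factor spliced by Ire1, was at 103 to 125 CPM in GC, 153 to 352 in prePC, 1253 to 2603 in cycling PC and 2010 to 2605 in G1 PC (4.85 ± 0.16). Creb3l2 (8.55 ± 0.35) and Bhlha15 (9.51 ± 0.54), other secretory regulators, had 23 and 4 UMIs in all GC cells. Both passed the filter on low counts through the PC or prePC populations, so their calls against GC are no support. Mzb1, a Grp94 co-chaperone of B cells, was at 958 to 1047 CPM in GC, 1068 to 1851 in prePC, 4796 to 12241 in cycling PC and 13441 to 21790 in G1 PC (4.44 ± 0.23). Of the arm downstream of PERK 5 of 6 tested targets were higher (Slc3a2 2.25, Ddit4 1.30, Phgdh 1.17), while Psat1 was at -0.44 ± 0.24. Eif2ak3, which encodes PERK, was under the filter, at 18.5 to 21.6 CPM in GC, 0 to 17.8 in prePC, 2.50 to 18.8 in cycling PC and 0 to 29.0 in G1 PC. The Atf4 targets Atf3, Trib3 and Chac1 were under it too.

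Cells named prePC had part of the programme. Against GC cells 31 of the 52 genes were higher and 1 lower (median 0.83, against -0.03 over all genes), where 8.99% of all genes tested were called higher and 7.08% lower. At unadjusted p the counts were 39 and 1. The lists differed in their counts. Folding factors were higher in 8 of 9 genes (median 1.09), chaperones in 7 of 9 (1.21), glycosylation in 6 of 7 (0.70), translocon in 6 of 10 (0.71) and signal peptidase in 3 of 6 (0.51). Of the degradation list none was called higher (1 at unadjusted p, 1 with DESeq2) and Syvn1 was lower (-0.81 ± 0.22, adjusted p = 0.007); of the sensors 1 of 4, Ern1 (3.33 ± 0.85, adjusted p = 0.0044, from 7 prePC UMIs), was higher. Derl3 missed the threshold (1.46 ± 0.54, adjusted p = 0.082), though its 5 prePC sums were all above GC. The lower Syvn1 depended on the well. Pooled over mice, Syvn1 was at 118 CPM in prePC (10 cells, 13 UMIs) and 69.4 in GC cells of the PC well. In the non-PC well it was at 57.9 in prePC and 123 in GC cells. The GC cells of the wells also differed in their mix of states, and the part of either was not tested. Whether the lists differ from each other was not tested.

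The 6 genes with the lowest p in this comparison were Fkbp11 (5.63 ± 0.64, adjusted p = 1.4e-08), Pdia4 (2.56 ± 0.24, adjusted p = 1.1e-07), Calr (1.22 ± 0.15, adjusted p = 1.2e-07), Sec11c (1.02 ± 0.13, adjusted p = 1.2e-07), Rrbp1 (1.45 ± 0.20, adjusted p = 4.3e-07) and Pdia3 (0.87 ± 0.14, adjusted p = 1.3e-05). Pdia4, Calr, Sec11c and Rrbp1 were above every GC sum in all 5 mice, including the sum of 3 cells, and Fkbp11 had no UMI in that sum. Fkbp11 rested on few UMIs and passed the filter on low counts through PC alone, so its p is no support. In preMem Pdia4 was at 79.2 to 117 CPM and Fkbp11 at 5.57 to 26.0, both above every GC sum. Calr, Sec11c, Rrbp1 and Pdia3 overlapped GC there. Hsp90b1 (2.31 ± 0.31, adjusted p = 1.9e-04) and Manf, a BiP-binding factor that can be secreted (1.64 ± 0.19, adjusted p = 1.7e-05), had the largest differences among chaperones. Within mice the chaperone sum was 2.60-fold higher than in GC (mean log2 1.38, range 0.65 to 2.12; higher in 4 of 5 mice by the mean of log2(CPM + 1)) and the degradation sum 1.03-fold (0.04, -0.45 to 0.38, higher in 4 of 5 mice). The sum of the sensors was higher in 2 of 5 mice (-0.15, -0.87 to 0.52). Summed memory precursor markers were 329.8 to 915 CPM in prePC against 14.2 to 46.8 in GC and 847 to 1039 in preMem, and their part in these values was not tested. Against G1 PC all 52 genes were lower in prePC (median -2.81), where 20.4% of all genes tested were called lower and 19.1% higher. With plain totals 49 were lower, and calls over all genes moved from 954 higher and 1018 lower to 1706 and 651.

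Without mouse 2 of day 10, which gave 28 of the 47 prePC, 21 of 50 tested members were higher and none lower, where 7.24% of all genes tested were called higher and 3.46% lower. With cells thinned to 4638 UMIs and shallower cells left out, prePC sums held 42 cells of 4 mice. Then 18 of 48 were higher and none lower, where 10.2% of all genes were higher and 6.11% lower. Equal depth and the loss of cells were not told apart. With GC cells of the PC well as the reference 23 of 50 were higher and none lower, where 10.3% of all genes were higher and 4.06% lower. Of the 32 calls, 13 held in every setting run.

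Cell by cell, the 52 genes made up a median of 0.686% of non-immunoglobulin UMIs in GC cells (95th percentile 0.987%), 0.902% in prePC, 5.44% in cycling PC and 7.29% in G1 PC. All 242 PC were above the GC 95th percentile. Of the 47 prePC 19 were above it, and 2 reached the 5th percentile of PC, 2.51%. The 47 values ran from 0.549% to 2.52%. Among them the 27 cells called G1 had a median of 0.734%, the 9 in S 1.15% and the 11 in G2M 1.14%, with median depths of 11769, 27587 and 27347 UMIs. The 10 prePC of the PC well had a median of 1.20% and the 37 of the other well 0.885%. The 8 PC of the non-PC well had a median of 2.28%, with 5.11% of UMIs from immunoglobulin genes, against 6.28% and 24.6% in the 234 PC of the PC well. Shares per cell are descriptions, since cells of a mouse are not replicates.

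**Figure D3:**
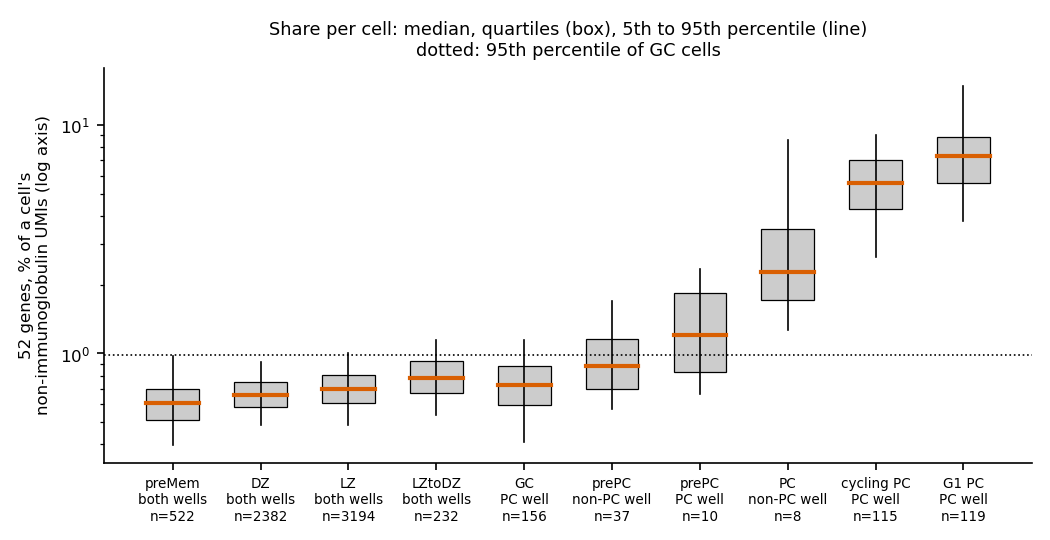
Share of a cell's non-immunoglobulin UMIs that came from the 52 genes (percent, log axis) by state and well: orange line the median, box the quartiles, thin line the 5th to 95th percentile, dotted line the GC 95th percentile (0.987%). DZ, LZ and LZtoDZ have medians of 0.660%, 0.700% and 0.779%, preMem 0.608%, prePC at 0.885% and 1.20% in the 2 wells, cycling and G1 PC of the PC well at 5.58% and 7.30%.

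Plasma cells called G1 stood above those called S or G2M. In G1 PC 45 of the 52 genes were higher than in cycling PC and none lower (median 0.72, against 0.10 over all genes), where 15.3% of all genes tested were called higher and 12.1% lower. At unadjusted p the counts were 46 and 0, and with DESeq2 38 and 0. By the median over genes degradation (6 of 7 called, 1.29) and the sensors (4 of 4, 1.24) came first. Of the sensors, Ern1 and Ddit3 had most or all cycling PC sums under the filter on low counts. The filter itself favoured a difference for both, so their p here is no support. Chaperones (8 of 9, 0.81), signal peptidase (5 of 6, 0.71) and folding factors (8 of 9, 0.68) followed, then glycosylation (7 of 7, 0.64) and translocon (7 of 10, 0.50). Herpud1 moved from 311, 255, 215, 253 and 569 CPM in cycling PC to 724, 865, 919, 655 and 1179 in G1 PC without overlap (1.84 ± 0.19, adjusted p = 8.0e-08). Syvn1 (1.29 ± 0.18, adjusted p = 8.4e-07), Edem1 (1.16 ± 0.16, adjusted p = 3.3e-07), Sec11c (0.84 ± 0.11, adjusted p = 1.8e-07) and H13 (1.03 ± 0.14, adjusted p = 7.0e-07) did not overlap either, and Fkbp11 did (1.14 ± 0.15, adjusted p = 3.5e-07). Sel1l, the partner of Syvn1, was at 41.0, 95.9, 55.0, 106 and 131 CPM in cycling PC and 101, 208, 153, 178 and 303 in G1 PC, with some overlap (1.43 ± 0.23, adjusted p = 6.9e-06). Canx, Derl2, Sec11a, Sec61a1, Sec63, Ssr1 and Creld2 were not called. By CPM, which carry no TMM scaling, Sec11a was lower in G1 PC in each of the 4 mice with both populations, and Canx in most. Summed within the 4 mice with both populations, degradation was 2.11-fold higher (1.08, 0.99 to 1.23) and was the highest of the lists in all 4; with each gene given equal weight it was the highest in 2 of 4. The sum of the sensors was higher in 4 of 4 (0.70, 0.52 to 0.93) but ranked 3rd to 7th of the 7 lists; with equal weight it ranked 1st to 7th. Handling genes rose as well (4 of 5 tested), and their part was not tested. Without mouse 2 of day 10, which held 58 of 120 cycling and 69 of 122 G1 PC, 26 of 50 tested members were called, where 9.91% of all genes tested were called higher, and with no filter on low counts 23 of 52, where 2.52% were. With plain library totals, under which the median of all genes moved from 0.10 to -0.15 and calls over all genes from 766 higher and 603 lower to 325 and 935, 31 members were higher and none lower.

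The same step in the cell cycle was then compared in GC cells, an analysis added after the PC result was seen. Between G1 and cycling GC cells 16 members were higher in G1 and 5 lower (median 0.15, as over all genes), where 42.4% of all genes tested were called higher and 20.3% lower. With plain totals the members' counts were 10 and 8, and those of all genes moved from 3032 and 1449 to 2093 and 1936. Derl3 ran against its course in PC: 8.38 CPM (median) in G1 GC and 20.5 in cycling GC (-1.21 ± 0.29, adjusted p = 0.0015). Fkbp2 (-0.67), Sdf2l1 (-0.54), Rpn2 (-0.29) and Sec11c (-0.20) were also lower in G1 GC cells. Ddit3 was higher in G1 in GC cells too, at medians of 18.01 against 8.07 CPM (1.23 ± 0.14, adjusted p = 7.1e-12).

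The G1 minus cycling difference was larger in PC than in GC for 19 of the 52 genes and smaller for none (interaction term; median 0.47, against -0.10 over all genes), where 2.46% of all genes tested were called larger and 3.89% smaller. At unadjusted p the counts were 30 and 1, and DESeq2 was not run for this term. Of the 19, 5 were chaperones of 9 (Hsp90b1 1.32 ± 0.31, Dnajb9 1.28 ± 0.22, Sdf2l1 1.25 ± 0.26, Dnajc3 0.99 ± 0.16, Manf 0.82 ± 0.21) and 5 degradation genes of 7 (Derl3 2.56 ± 0.36, Herpud1 1.42 ± 0.19, Sel1l 1.17 ± 0.21, Edem1 0.99 ± 0.15, Syvn1 0.69 ± 0.17). Glycosylation gave 3 of 7 (Ddost, Rpn2 and Krtcap2), translocon 2 of 10 (Sec61b and Ssr3), signal peptidase 2 of 6 (Sec11c 0.93 ± 0.12 and Spcs3), and folding factors 2 of 9 (Fkbp2 1.29 ± 0.18 and P4hb). None of the 4 sensors was called (1 at unadjusted p, Ddit3, 1.03 ± 0.48, adjusted p = 0.21). The count was 11 without mouse 2 of day 10, where 0.971% of all genes were called larger, and 25 at most with another mouse left out (mouse 1 of day 16, 4.31%).

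**Figure D4:**
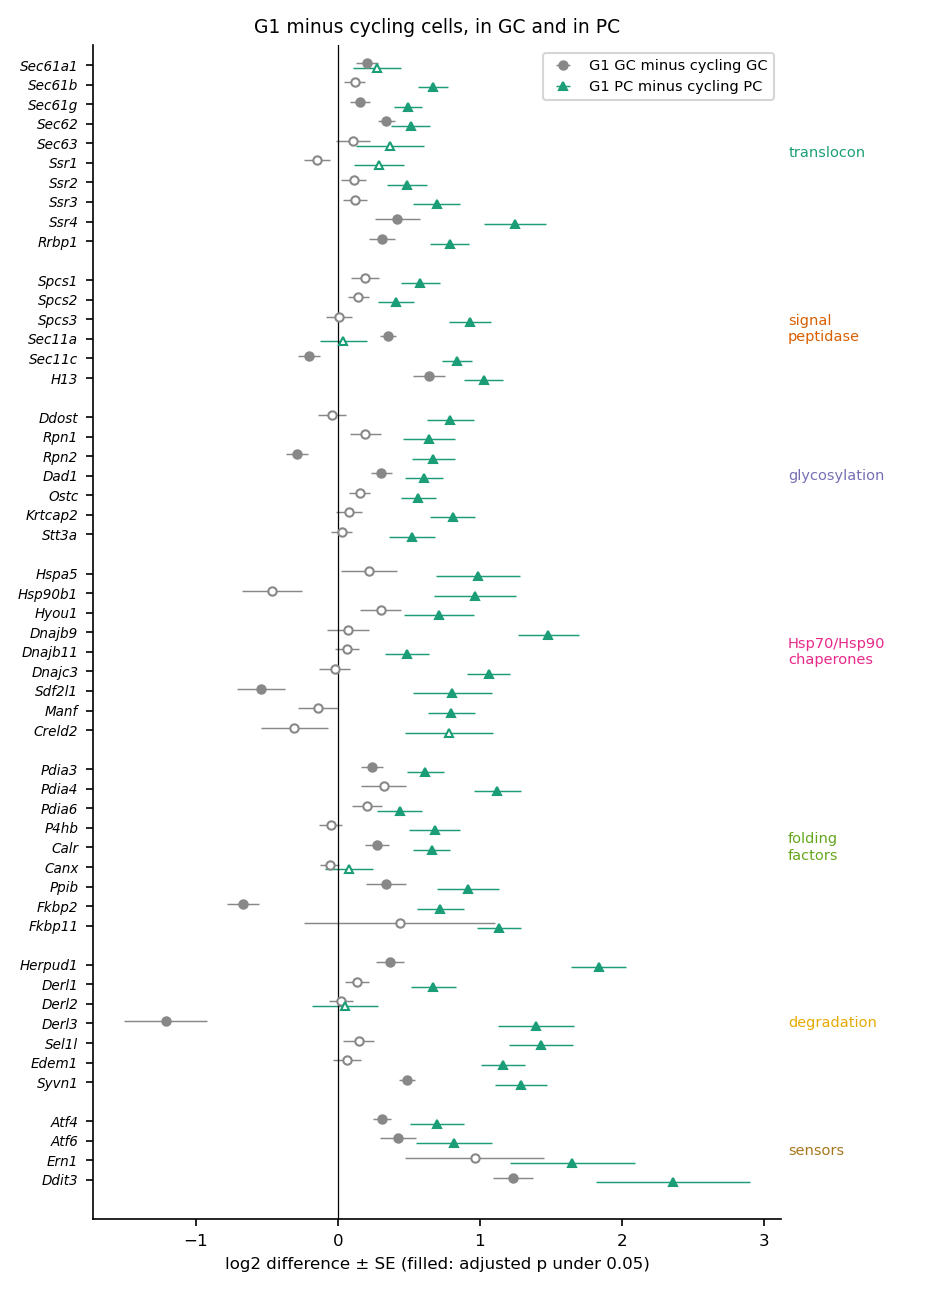
Log2 difference between G1 and cycling cells (x axis, with SE) for each gene in GC cells (grey circles) and in PC (green triangles); filled symbols have an adjusted p under 0.05. With TMM scaling triangles lie to the right of 0 for all 52 genes, though Sec11a was lower in G1 PC by unscaled CPM within mice. The gap to the circles is widest for Derl3 (-1.21 in GC, 1.40 in PC).

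Within the germinal centre the differences were smaller. In LZ against DZ cells, with all 6 mice on both sides, 31 of 51 tested members were higher and 3 lower (median 0.20), where 19.1% of all genes tested were called higher and 15.7% lower. Glycosylation (7 of 7), folding factors (8 of 9) and chaperones (7 of 9) held most of the calls, against 3 of 10 for translocon, 3 of 6 for signal peptidase, 2 of 7 for degradation and 1 of 3 tested sensors (Ddit3). Sec61b (-0.12), Sec11c (-0.22) and Atf4 (-0.16) were lower. The 6 lowest p belonged to genes whose LZ and DZ sums did not overlap. Pdia6, a disulphide isomerase, was at 193 to 229.7 (median 215) CPM in LZ and 142 to 161 (median 149) in DZ (0.52 ± 0.05, adjusted p = 2.7e-16). Pdia3 was at 363 to 390.0 (median 379.8) and 279 to 309.7 (median 285) CPM (0.41 ± 0.05, adjusted p = 7.0e-12), and Hspa5 at 299 to 333 (median 312) and 198 to 223 (median 212) (0.59 ± 0.06, adjusted p = 1.2e-10). Each of these differences was under 1 log2 unit. Calr was at 172 to 209.7 (median 192) and 124 to 148 (median 139) CPM (0.51 ± 0.06, adjusted p = 1.0e-09), and P4hb, another isomerase, at 115 to 136 (median 128) and 90.7 to 106 (median 105) (0.34 ± 0.05, adjusted p = 4.0e-08). Derl3 was at 14.7 to 21.8 (median 20.0) and 7.35 to 12.9 (median 9.54) CPM (0.95 ± 0.13, adjusted p = 1.8e-09). Among cells called S or G2M alone the counts were 30 higher and 4 lower of 50, where 16.4% of all genes tested were called higher and 15.8% lower.

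LZtoDZ cells, 232 in number and deep (median 22408 UMIs a cell against 7668 in LZ), had higher chaperone and lower degradation sums than LZ. The wells were unevenly shared: 43 of the 232 came from the PC well, against 78 of 3194 LZ cells. Within LZ cells the PC well had chaperones at 0.34 ± 0.22 and degradation at -0.38 ± 0.38 (log2, SD over mice). The part of the well in what follows was not tested. Against LZ 23 members were higher and 6 lower (median 0.18), where 27.6% of all genes tested were called higher and 29.9% lower. The chaperone sum was higher in 6 of 6 mice (mean log2 0.62) and the degradation sum lower in 6 of 6 (-0.42). Hsp90b1 was at 291 to 522 (median 391) CPM in LZtoDZ against 187 to 215 (median 207) in LZ (1.02 ± 0.09, adjusted p = 1.4e-08). Syvn1 was at 42.0 to 62.8 (median 56.5) against 125 to 138 (median 129) CPM (-1.20 ± 0.08, adjusted p = 3.9e-24). Neither overlapped. Sdf2l1 (0.95 ± 0.07), Derl3 (0.91 ± 0.15), Manf (0.80 ± 0.06), Canx (0.66 ± 0.06) and Hspa5 (0.62 ± 0.06) were also higher without overlap. Herpud1 (-0.42 ± 0.06), Derl2 (-0.32), Spcs1, Spcs2 and Sec62 were the others lower. With cells thinned to equal depth 11 of 50 tested members were higher and 4 lower, where 19.3% of all genes tested were called higher and 21.0% lower, so the members' share was near that of all genes.

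**Figure D5:**
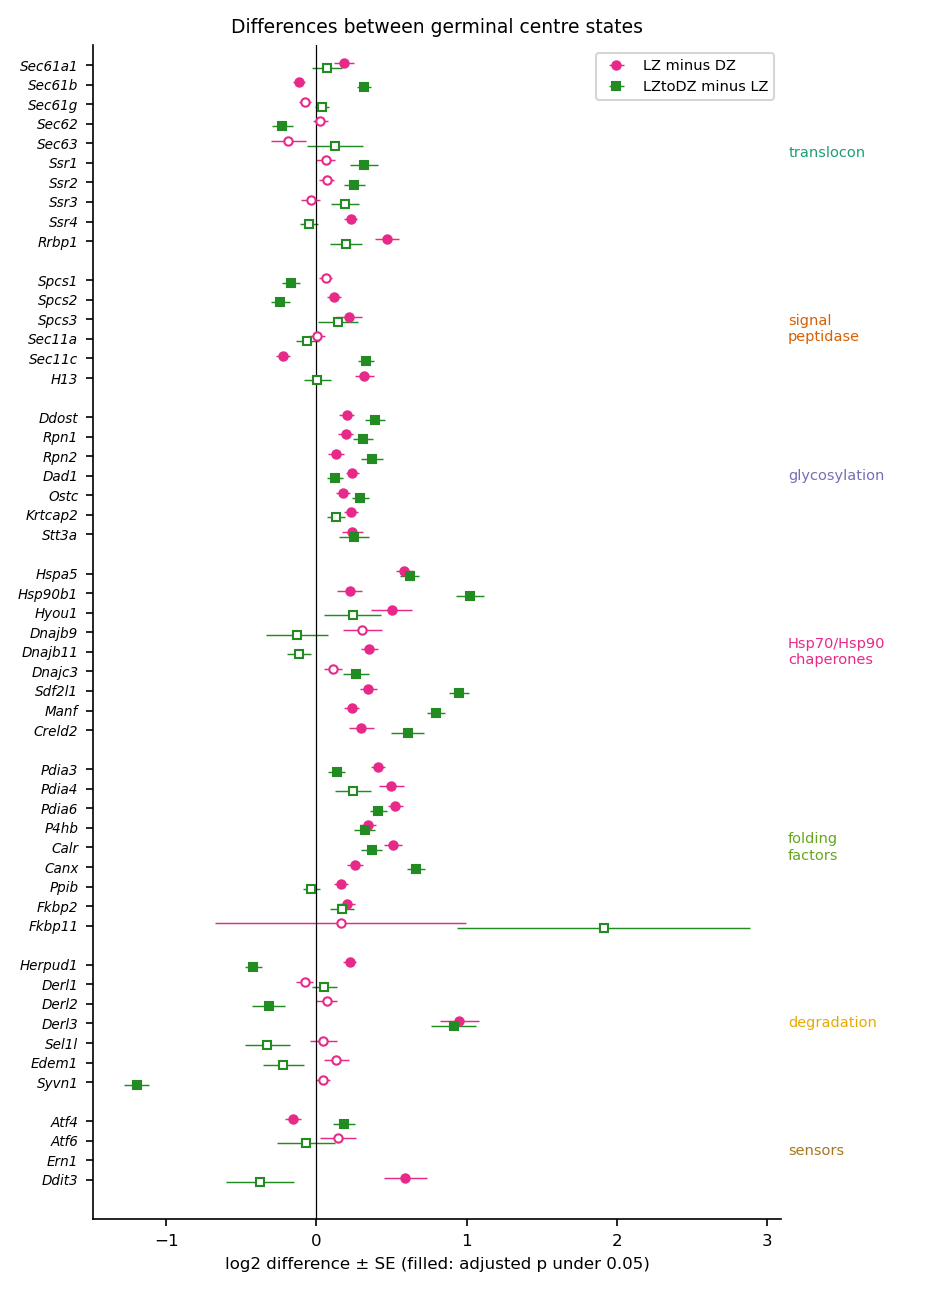
Log2 differences (x axis, with SE) for each gene between LZ and DZ cells (pink circles) and between LZtoDZ and LZ cells (green squares); filled symbols have an adjusted p under 0.05, and Ern1 was not tested. Circles of the chaperone, folding and glycosylation lists lie to the right of 0, and the square of Syvn1 in LZtoDZ minus LZ (-1.20) lies farthest left.

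The preMem cells, 522 in number, had more members lower than higher. Against LZ 7 members were higher and 22 lower (median -0.19), where 18.3% of all genes tested were called higher and 21.1% lower; with plain totals the members were 4 and 27, and all genes moved from 1592 and 1834 to 1315 and 2216. Derl3 (-1.02 ± 0.30), Sdf2l1 (-0.94 ± 0.12) and Fkbp2 (-0.89) fell most. Summed cycling markers were 323 to 537 CPM in preMem and 1084 to 1311 in LZ, and phases were not matched here. Derl3, Sdf2l1 and Fkbp2 were also lower in G1 than in cycling GC cells, and the part of the phase was not tested. Pdia4 was higher, at 79.2 to 117 (median 102) CPM in preMem against 33.6 to 39.8 (median 36.0) in LZ (1.45 ± 0.12, adjusted p = 1.6e-18). So was Atf6, at 22.3 to 48.9 (median 29.8) against 11.7 to 19.9 (median 14.0) CPM (1.08 ± 0.20, adjusted p = 2.6e-06). Fkbp11 was at 5.57 to 26.0 (median 7.74) CPM, 26 UMIs in all, against 0 to 0.595 (median 0.0974), 6 UMIs (5.25 ± 0.65). None of these 3 overlapped. Fkbp11 had 5 or 6 UMIs in each of DZ, LZ and LZtoDZ and could pass the filter on low counts through preMem alone, so its p is no support. H13, Ppib, Sec62 and Ssr4 were the other members higher. Without mouse 2 of day 10, which held 286 of the 522 cells, 5 members were higher and 13 of 51 lower, where 12.6% of all genes tested were called higher and 16.6% lower.

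No member was called over days 10, 16 and 22. In GC cells 0 of 50 tested members passed, where 3.51% of all genes tested did; 10 members had an unadjusted p under 0.05 and DESeq2 called 0. The lowest adjusted p, 0.079, was that of Herpud1 (day 22 minus day 10 0.23 ± 0.06). In PC 0 of 51 passed, with 1 at unadjusted p (Spcs1) and 0 with DESeq2, where 0% of all 4115 genes did (122 at unadjusted p, 1 with DESeq2). Without mouse 1 of day 16, 10 members passed in PC, where 1.13% of all genes tested did, and that fit rests on 1 mouse for that day, whose spread is taken from the other days.

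The wells were compared in GC cells, which were caught in both (156 in the PC well). Their states were mixed differently: LZtoDZ made up 43 of the 156 (27.6%) and 189 of 5652 (3.34%) in the other well. In 5 mice the chaperone sum was higher in the PC well by 0.59 ± 0.11 (log2, SD over mice; 5 of 5) and Hsp90b1 by 0.95 ± 0.26, while the degradation sum was lower, at -0.38 ± 0.17 (5 of 5) as was Syvn1, at -1.11 ± 0.78. Jchain was not higher in these cells (-0.18, lower in 5 of 5), nor was the immunoglobulin share (-0.25). LZtoDZ cells had an immunoglobulin share of 0.722% to 0.975%. Mzb1 was higher in 1 of 5 mice and Xbp1 in 2 of 5. Fkbp11 was higher in 3 of 5, at 3.11 CPM (6 UMIs) against 0.175 (10 UMIs) over all mice. Whether plasma cell RNA or the mix of states had a part was not tested. The translocon sum differed by 0.04 (higher in 3 of 5). Within LZ cells alone, a comparison added after the data were seen (78 in the PC well), the chaperone sum was higher by 0.34 ± 0.22 (5 of 5) and Hsp90b1 by 0.56 ± 0.48 (5 of 5). There the degradation sum was at -0.38 ± 0.38 (lower in 4 of 5) and Syvn1 at -0.60 ± 1.06 (lower in 4 of 5). With GC cells of the PC well as the reference, 50 of 50 tested members were higher in G1 PC, where 31.1% of all genes were, and 48 in cycling PC, where 21.9% were. With GC cells of the same phase the counts were 52 in G1 PC, 50 in cycling PC and 28 in prePC with 1 lower, where 20.8%, 24.4% and 11.3% of all genes were higher.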

How the data were processed

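Single-cell RNA libraries (5′ chemistry) were made from sorted PC and non-PC fractions pooled over 6 hashtagged mice. The deposited matrix holds raw UMI counts per gene and cell, made by the authors with Cell Ranger and Seurat against GRCm38 (mm10), per the submitters' processing notes; versions, cell filters, doublet removal and the way states and phases were assigned are not given in the sources used here. Mouse, day, state and phase of each cell were taken from the authors' deposited cell table, and each cell's UMI total was checked to equal that of the matrix. Antigen receptor and hashtag libraries were not used here.

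The 253 immunoglobulin genes were left out, which left 14240. UMIs were summed per mouse and state (at least 10 cells for GC states, 5 for a phase of PC, 3 for prePC). Genes passed edgeR's filterByExpr with its minimum count of 10, and sums were scaled by TMM. TMM factors averaged 1.12 in GC, 1.07 in prePC, 0.974 in cycling PC and 0.835 in G1 PC. Printed CPM and sums of CPM carry no TMM scaling. Comparisons used edgeR's quasi-likelihood F test with the mouse as a block, since the states compared came from the same mice, and Benjamini-Hochberg adjustment over all genes tested. GC, prePC, cycling PC and G1 PC were fitted together, as were DZ, LZ, LZtoDZ and preMem. Days were compared between mice, without a block. Values after ± are standard errors of log2 differences unless SD is named. The procedure was tested on simulated data. No doublet caller was run; leaving out the 308 cells above the 95th percentile of UMIs of their state was an alternative.

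The members and lists were chosen with earlier results of these data known. Named members are, per list, those with the 2 largest and the smallest G1 PC minus GC difference, and the 6 with the lowest p in each of 3 other comparisons; Hspa5, Herpud1, Ddit3, Sel1l, Manf and other members named beyond these were picked after their values were seen. Alternatives were DESeq2, its size factors, plain totals, no filter on low counts, immunoglobulin genes kept, thinning, no block, leaving out each mouse, other cell minimums, and other choices of GC cells. Of the members, 4 (Sec11a, Hsp90b1, Manf and Pdia4) share exon bases with another gene on the same strand and 20 with one on the opposite strand; the strand setting of the counting is not given in the sources used here. Positions are from GENCODE M21, and promoters from RefSeq. Tools were R 4.3.3, edgeR 4.0.16, limma 3.58.1, DESeq2 1.42.0, Python 3.11.15, numpy 2.4.6, scipy 1.17.1, pandas 2.3.3 and matplotlib 3.10.9.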

Additional observations from a re-analysis of the deposited data

Results flagged for a closer look

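Among 36 sets of mouse values looked at (a list in a population, 5 or 6 mice each), 3 had 1 mouse set apart from the others by Dixon's test at the 95% level, which chance gives for about 1 set in 20. The chaperone system without Hsp90b1 was lowest in G1 PC of mouse 2 of day 16, at 8639 CPM against 12731 to 13819 in the other 4. Signal peptidase in GC cells was highest in mouse 2 of day 22, at 963 CPM against 899 to 923 in the other 5. Translocon and ribosome binding in G1 PC was highest in mouse 1 of day 22, at 15281 CPM against 13606 to 13991 in the other 4.

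The G1 minus cycling difference was larger in PC than in GC cells for 19 members, by the interaction term described in the report.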

How the results depend on the processing

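The counts of members higher in G1 PC and in cycling PC than in GC stayed within 1.5 times their values in every alternative run. All 52 calls of G1 PC against GC held in every setting that tested them, as did 48 of 50 in cycling PC against GC, 23 of 45 in G1 against cycling PC, 13 of 32 in prePC against GC and 21 of 34 in LZ against DZ. The cause was not tested for the exceptions that follow. With DESeq2 11 members were higher in preMem than in LZ. With no filter on low counts the counts were 23 higher in G1 than in cycling PC, 3 higher in preMem than LZ, 9 lower in G1 than in cycling GC cells, and 2 that changed over days in GC. Thinning leaves fewer UMIs by construction and drops the shallowest cells. With it 18 were higher and 0 lower in prePC against GC, 11 higher in LZtoDZ against LZ, and 13 lower in preMem against LZ. In GC 2 changed over days, and Spcs2 (-0.11) and Ostc (-0.031) reversed sign in prePC minus GC. With plain library totals 1 was lower in cycling PC than GC, 4 higher in preMem than LZ, 10 higher and 8 lower in G1 than in cycling GC cells, and 1 changed over days in GC. With GC cells of the PC well only, 0 were lower in prePC, where Syvn1 stood at 0.038.

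With no replicate block for the mouse, 1 member was lower in cycling PC than GC and 1 in LZ than DZ, 46 were higher in G1 than in cycling PC and 34 in prePC than GC; no other count moved by over 1.5 times.

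Leaving out 1 mouse at a time gave 26 to 42 members higher in G1 than in cycling PC, 21 to 31 higher and 0 to 1 lower in prePC than GC, 13 to 24 lower in preMem than LZ, and 11 to 25 with a larger phase difference in PC; the lowest of each was without mouse 2 of day 10. In G1 against cycling GC cells 6 to 16 were higher (6 without mouse 1 of day 16, 7 without mouse 2 of day 16) and 4 to 11 lower. Over days in PC 0 to 10 changed (10 without mouse 1 of day 16, 1 without mouse 2 of day 16). The prePC were few, 47 in all with 3 of them in 1 mouse, and Ern1 had 7 UMIs there. The part of cell number in these ranges was not tested.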
